A study of Mus musculus with 75 samples.

Results

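The hypoxia-response genes followed here were 10 of the 24984 genes counted in mouse skin fibroblasts. They were the oxygen-regulated transcription factor subunits Hif1a and Epas1 and 8 genes known as their targets, Egln3, Ndufa4l2, Bnip3, Pdk1, Vegfa, Adm, Ankrd37 and Car9. The 10 were a named list, chosen with results of these data in view. Ndufa4l2 was selected on its change in counts over the passages, where it rose strongly, so its values over the passages are given as a description and with no test, and counts over the passages refer to the other 9. A broader list of 74 other hypoxia pathway genes was used for comparison.

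Hypoxia-inducible factor (HIF) is a pair of an alpha subunit, HIF-1α or HIF-2α, and a stable partner. With oxygen present, prolyl hydroxylases mark the alpha subunit for binding by the von Hippel-Lindau protein and destruction, so the factor is controlled largely at the protein level and the mRNA of Hif1a or Epas1 is no measure of its activity. When oxygen is scarce the factor binds short DNA elements with the core letters ACGTG or GCGTG and raises genes of glycolysis, mitochondrial restraint, blood vessel growth and acid handling, as well as a hydroxylase that opposes it.

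The study followed replicative senescence, the loss of division with repeated passaging, in skin fibroblasts of C57BL/6 mice, described in its methods as cells of young female animals. The oxygen level of the cultures was not given in the sources used here. RNA sequencing covered untreated cells after 1, 3, 5 or 7 passages (P1 to P7, with 4 libraries each) and chromatin accessibility sequencing (ATAC-seq) covered P1 (4 samples), P3, P5 and P7 (3 samples each). In a further 28 RNA libraries a regulator was changed with lentivirus: E2f4 overexpression against a vector control (2 libraries each), an E2f4 hairpin (sh1), 2 Tead1 hairpins (sh3 and sh4) and 2 Atf3 hairpins (sh5 and sh6), each hairpin with 3 libraries and each targeted gene with 3 libraries of its own non-targeting hairpin (nt). The overexpression virus was switched on by doxycycline and its control carried the fluorescent protein alone, and hairpin cells were selected with puromycin. The study describes pre-senescent cells for E2f4 overexpression and for the Atf3 hairpins, and proliferating cells for the E2f4 hairpin. Its methods name cells of newborn as well as young adult mice for lentiviral work, without saying which each library came from. Summed transcripts of 4 Y-linked genes were 0 CPM in all 16 passage libraries and 15.6 to 241 CPM in the 28 lentiviral ones. The labels name no animal for any library, so p-values measure the spread between these samples.

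The total count per library was 13430229 to 15725823 over the passages and 9147324 to 27552949 in all 44. Values are given as CPM, the count scaled to a common size by the library's total over the tested genes multiplied by its TMM factor. That factor, estimated in edgeR, was 1.08 to 1.09 at P1 and 0.92 to 0.95 at P7. The CPM of Xist and of the Y-linked genes used the library's total over all genes, without that factor. The targeted genes moved with the labels: E2f4 was 35.5 and 47.5 CPM with the vector and 1118 and 1180 CPM with overexpression, 59.6 to 60.8 CPM with nt and 20.4 to 21.8 CPM with sh1. Tead1 was 508 to 572 CPM with nt, 268 to 285 CPM with sh3 and 313 to 320 CPM with sh4. Atf3 was low everywhere, at 2.77 to 3.31 CPM with nt, 0.451 to 2.10 CPM with sh5 and 1.51 to 2.09 CPM with sh6, and its fall passed the test with sh5 (adjusted p = 0.0447) but not with sh6 (adjusted p = 0.114). All 8 fibroblast markers were above 0 in all 44 libraries. Over the passages their sum was 17790 to 20070 CPM at P1, below every later library (26179 to 35566 CPM). At P1 the summed markers of endothelium (177 to 190 CPM), macrophages (319 to 486 CPM) and keratinocytes (67.0 to 421 CPM) were each above every later library, whose ranges were 10.8 to 50.2, 19.8 to 59.8 and 1.71 to 11.5 CPM. All 8 endothelial, all 8 macrophage and 7 of 8 keratinocyte markers were above 0 in every P1 library, while Krt15 was at 0 in all of them. Skeletal muscle markers, 0 to 1 of 8 at 0 at P1, summed to 128 to 197 CPM there, also above every later library (29.7 to 110 CPM). These levels moved with the step from P1 to P3 for every gene below, and their part in its results was not tested. In bulk RNA, fewer cells of a type and less RNA per cell cannot be told apart.

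The oxygen-regulated subunits did not pass the test between any passages. Hif1a, which encodes HIF-1α (chr12:73901324-73947554 of GRCm38), was 424, 413, 576 and 373 CPM at P1 and 581, 370, 589 and 419 CPM at P7, with P3 (382 to 575 CPM) and P5 (330 to 642 CPM) in the same range. The groups overlapped completely, and P7 differed from P1 by 0.13 ± 0.19 on the log2 scale (SE, adjusted p = 0.55 by edgeR's quasi-likelihood test with Benjamini-Hochberg adjustment, which applies to every adjusted p here unless DESeq2 is named). Epas1, which encodes HIF-2α (chr17:86753864-86833410), was 43.1, 54.4, 53.3 and 61.1 CPM at P1 and 45.1, 58.1, 63.7 and 81.9 CPM at P7, a difference of 0.23 ± 0.22 (adjusted p = 0.36). Replicate 4 was the highest library at every passage, with 87.3 CPM at P3 and 92.1 CPM at P5.

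Egln3 (chr12:54178981-54203874), the prolyl hydroxylase PHD3 that is itself a HIF target, was lower after P1. It was 2.95, 4.42, 3.69 and 4.21 CPM at P1 and 1.45, 2.19, 2.51 and 2.19 CPM at P3, with every P1 library above every P3 library. At P5 it was 2.13, 2.97, 1.94 and 2.12 CPM and at P7 2.06, 2.39, 2.77 and 0.891 CPM, so the lower level held. The changes were -0.87 ± 0.27 at P3 (adjusted p = 0.017) and -0.91 ± 0.27 at P7 (adjusted p = 0.0065) against the same P1 libraries. These levels rest on 12 to 68 counts a library. The P3 call was lost without P1 replicate 2 (adjusted p = 0.0506) or P3 replicate 1 (0.054), and the P7 call without replicate 4 of every passage (-0.61, adjusted p = 0.0575).

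Of the members that act on mitochondria, Bnip3 and Pdk1 were higher at P7 than at P1, while Ndufa4l2 was chosen for its rise. Ndufa4l2 (chr10:127509274-127517154), which encodes a mitochondrial protein that restrains complex I activity under HIF-1, was 1.85, 1.63, 2.26 and 1.05 CPM at P1, 8.74, 11.6, 8.32 and 4.83 CPM at P3, 16.9, 30.5, 26.3 and 21.6 CPM at P5 and 42.2, 25.5, 25.4 and 12.2 CPM at P7. No library of P3 overlapped P1 or P5, while P7 spread on both sides of P5. As a description of the values that chose the gene, its log2 change was 2.31 from P1 to P3, 1.5 from P3 to P5 and 0.15 from P5 to P7, and 3.96 from P1 to P7 (15.5-fold). Leaving out P7 replicate 1 turned the last step to -0.18. The library counts behind these values ran from 17 to 553.

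Bnip3 (chr7:138890836-138909506), a mitochondrial outer-membrane protein that promotes mitophagy, was 21.8, 26.1, 29.3 and 22.6 CPM at P1, 42.2, 62.0, 44.7 and 27.2 CPM at P3, 58.7, 72.7, 67.3 and 39.4 CPM at P5 and 90.8, 64.6, 70.4 and 41.0 CPM at P7. All libraries of P5 and P7 lay above all of P1, while 1 P3 library lay inside the P1 range. Bnip3 rose by 0.82 ± 0.23 from P1 to P3 (adjusted p = 0.011) and by 1.42 ± 0.24 from P1 to P7 (adjusted p = 3.3e-05). The rise to P3 did not pass without P3 replicate 2 (adjusted p = 0.0604).

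Pdk1 (chr2:71873215-71903858), the kinase that holds pyruvate dehydrogenase inactive and so keeps pyruvate out of the citric acid cycle, was 11, 12.3, 13.4 and 9.59 CPM at P1 and 25.4, 30.2, 24.2 and 20.8 CPM at P3. It was 30.9, 44.3, 39.0 and 24.7 CPM at P5 and 41.1, 32.9, 43.1 and 24.3 CPM at P7. All 12 later libraries were above the 4 of P1. The rise was 1.12 ± 0.19 at P3 (adjusted p = 0.00016) and 1.61 ± 0.19 at P7 (adjusted p = 5.3e-07). From P3 to P5 the difference was 0.46 ± 0.18 (adjusted p = 0.06), and it passed without P3 replicate 2 (0.0451) or P5 replicate 4 (0.0228). Replicate 4 was the lowest library of P3, P5 and P7 for Bnip3 and Pdk1, and of P1, P3 and P7 for Ndufa4l2. Without replicate 4 of every passage the rises of Bnip3 and Pdk1 from P1 to P7 still passed.

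**Figure D1:**
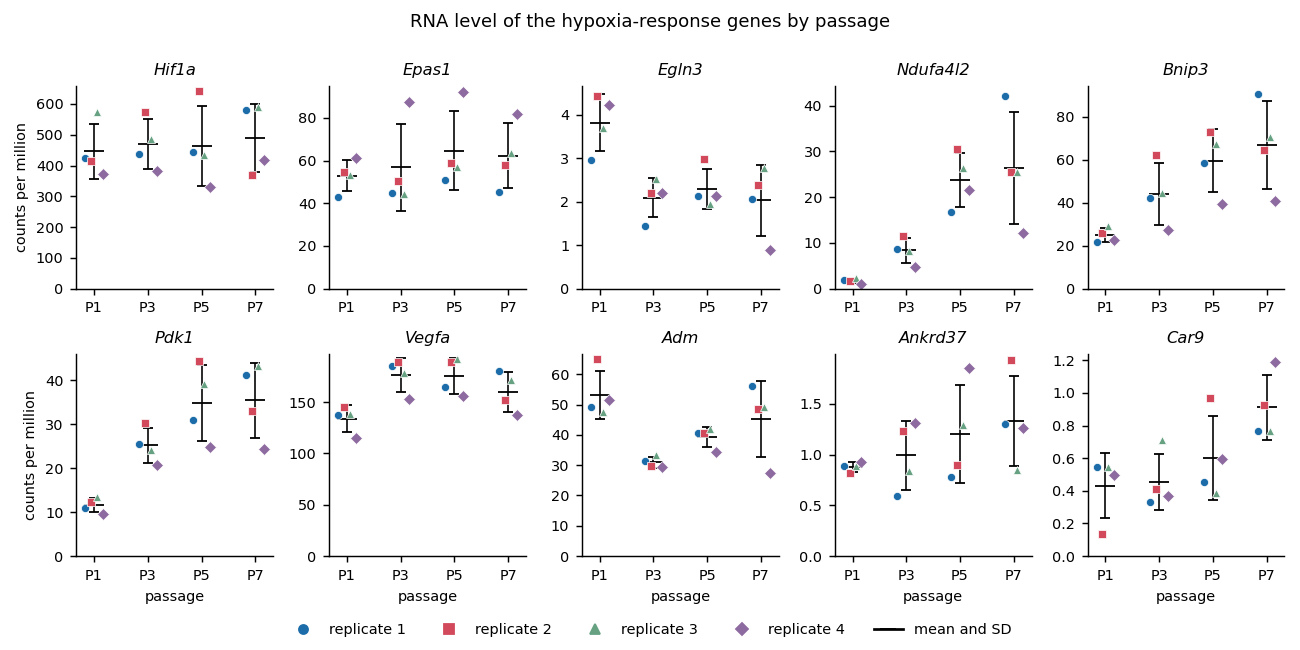
CPM of each of the 10 members in the 16 passage libraries, 1 panel a gene with its own axis from 0. Points are libraries and bars the mean with its SD (n = 4). Ndufa4l2, Bnip3 and Pdk1 climb from P1, Egln3 drops after P1, Adm drops at P3 and lies back in the P1 range in 3 of 4 P7 libraries, and Hif1a and Epas1 overlap throughout.

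Of the secreted factors, Vegfa (chr17:46016993-46032377), the main growth factor of blood vessels, was 137, 145, 138 and 115 CPM at P1 and 186, 189, 178 and 153 CPM at P3. All P3 libraries were higher, by 0.40 ± 0.10 (adjusted p = 0.0057). At P5 it was 165, 189, 192 and 156 CPM and at P7 180, 152, 171 and 137 CPM, where the groups P1 and P7 overlapped and the difference was 0.26 ± 0.10 (adjusted p = 0.036). The P7 call was lost without P1 replicate 4 (adjusted p = 0.125), P7 replicate 1 (0.109) or P7 replicate 3 (0.0753).

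Adm (chr7:110627657-110629820), the vasodilator peptide adrenomedullin, moved down and back. It was 49.1, 64.9, 47.4 and 51.4 CPM at P1, 31.3, 29.6, 33.3 and 29.3 CPM at P3, 40.5, 40.7, 41.8 and 34.4 CPM at P5 and 56.0, 48.5, 49.2 and 27.2 CPM at P7. P3 lay below both neighbours with no overlap, and P7 replicate 4 was the lowest of all 16 libraries. Adm fell from P1 to P3 (-0.78 ± 0.16, adjusted p = 0.00071) and rose by 0.55 ± 0.16 from P3 to P7 (adjusted p = 0.0067). P7 against P1 was -0.23 ± 0.15 (adjusted p = 0.19). From P5 to P7 the difference passed without P7 replicate 4 (0.38, adjusted p = 0.024).

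The remaining members were near the limit of the counts. Ankrd37 (chr8:45996908-46000414), an ankyrin-repeat protein, was 0.816 to 0.928 CPM at P1 and 0.845 to 1.93 CPM at P7 (9 to 28 counts a library), a difference of 0.59 ± 0.34 (adjusted p = 0.14). Car9 (chr4:43507026-43513729), the membrane carbonic anhydrase that handles acid outside the cell, was 0.548, 0.136, 0.547 and 0.495 CPM at P1 and 0.763, 0.926, 0.769 and 1.19 CPM at P7. The groups did not overlap, and the rise of 1.06 ± 0.41 passed (adjusted p = 0.03), on 2 to 16 counts a library. It was lost without P1 replicate 2 (adjusted p = 0.101), P7 replicate 2 (0.053) or P7 replicate 4 (0.0901). Reads were counted without regard to strand, and an antisense transcript spans Adm completely (2164 bases of Gm28863), Arhgef39 overlaps Car9 by 1722 bases and Gm15283 overlaps Hif1a by 12831 bases on the opposite strand, so their reads cannot be told apart there.

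Counted together, 5 of the 9 members tested passed from P1 to P3 (3 higher, 2 lower), where 33.4% of all 13442 genes passed (16% higher, 17.5% lower). From P1 to P7 again 5 passed (4 higher, 1 lower), beside 62.5% of all genes (30.5% higher, 31.9% lower), so the share of members was no larger than that of genes in general. From P3 to P7, 3 passed, all higher: Adm, Bnip3 (0.60 ± 0.23, adjusted p = 0.035) and Pdk1 (0.49 ± 0.18, adjusted p = 0.03), beside 51.3% of all genes (24.8% higher, 26.5% lower). P3 and P7 overlapped in all 3 of these genes. The Bnip3 call of P7 against P3 was lost without P3 replicate 1 (adjusted p = 0.0689), 3 (0.0632) or 4 (0.114) or P7 replicate 1 (0.153), 2 (0.0549) or 3 (0.0646). The Pdk1 call was lost without P3 replicate 1 (adjusted p = 0.0507), 3 (0.0671) or 4 (0.085) or P7 replicate 1 (0.0921) or 3 (0.101), and Car9 (0.99 ± 0.41, adjusted p = 0.05) passed without P3 replicate 3 (1.29, 0.0282). Between P3 and P5, edgeR called 0 members (28.7% of all genes, 13.4% higher and 15.3% lower), with 2 at an unadjusted p under 0.05 and 1 call by DESeq2, and between P5 and P7 0 (16.8%, 7.67% higher and 9.1% lower), with 0 unadjusted and 0 by DESeq2. The median log2 change of the 9 from P1 to P7 was 0.26, beside -0.01 over all genes. The comparisons of P3 and P7 with P1 share the P1 libraries, and those of P7 with P1 and with P3 share P7.

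Per kilobase of transcript, which allows genes to be compared, Hif1a was the most abundant member at P1 (89.4 ± 17.8 CPM per kb, SD, n = 4) and at P7 (98.2 ± 22.4 CPM per kb). At P1 it was followed by Adm (38.2 ± 5.71) and Vegfa (32.1 ± 3.20), whose ranges of mean ± SD met, then Bnip3 (14.2), Epas1 (9.72), Pdk1 (1.79), Ndufa4l2 (1.47), Egln3 (1.43), Ankrd37 (0.396) and Car9 (0.196). Pdk1, Ndufa4l2 and Egln3 did not differ beyond their spread there. At P7, Vegfa (38.3 ± 4.60), Bnip3 (38.0 ± 11.7), Adm (32.5 ± 8.95) and Ndufa4l2 (22.9 ± 10.7) followed Hif1a. From Vegfa down to Epas1 (11.4 ± 2.80), neighbours in the order met within mean ± SD, and Pdk1 (5.45), Egln3 (0.758), Ankrd37 (0.6) and Car9 (0.414) followed.

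Some paralogues of the members also passed from P1 to P7. Ndufa4, the ubiquitous relative of Ndufa4l2, was 81.7 CPM on average at P1 and 104 CPM at P7, a rise of 0.35 ± 0.13 with overlapping groups (adjusted p = 0.0211). Bnip3l, which also acts in mitophagy, rose by 0.84 ± 0.08 (adjusted p = 2.7e-08). Of the relatives of Vegfa, Vegfb was lower at P7 (-0.73 ± 0.16, adjusted p = 0.00047), as was Vegfc, the growth factor of lymphatic vessels (-1.02 ± 0.12, adjusted p = 4.4e-07).

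Of the 74 other pathway genes, 72 were tested, and 39 were higher and 8 lower at P7 than at P1 (median log2 change 0.36), beside 30.5% higher and 31.9% lower of all genes. By role, 14 of 21 genes of glucose uptake, glycolysis and glycogen were higher and 0 lower, as were 7 of 11 genes of oxygen sensing, 4 of 6 of mitochondria and mitophagy and 5 of 7 matrix-modifying enzymes. Of 9 vascular and secreted factors 3 were higher and 4 lower, of 15 transcription, chromatin and stress targets 6 were higher and 4 lower, and of 3 genes of acid and lactate handling 0 passed in edgeR, with 1 at an unadjusted p under 0.05. The largest rises that passed were those of Ppp1r3c, a phosphatase subunit that promotes glycogen synthesis (3.29 ± 0.37, adjusted p = 3.2e-07), the collagen cross-linking enzyme Loxl2 (2.43 ± 0.11, adjusted p = 1.4e-12) and the endoplasmic reticulum oxidase Ero1l (1.32 ± 0.10, adjusted p = 5.4e-10). Ppp1r3c was low, with an average log2 CPM of 0.66 over the passages. The largest falls were those of Kdr, the VEGF receptor that is also an endothelial marker (-3.09 ± 0.20, adjusted p = 1.0e-10), Edn1, the vasoconstrictor endothelin (-1.98 ± 0.22, adjusted p = 2.0e-07), and the transferrin receptor Tfrc (-1.40 ± 0.14, adjusted p = 7.4e-08).

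The same counts were taken over the single steps. From P1 to P3, 16 of 72 pathway genes were higher and 13 lower, beside 16% and 17.5% of all genes, with 1 of 21 glycolytic genes higher and 2 lower. Loxl2 (1.49 ± 0.10), Flt1, a VEGF receptor (1.37 ± 0.12), and Ero1l (1.06 ± 0.09) led the rises, and Kdr (-1.25 ± 0.18), Stc1 (-0.94 ± 0.20) and Pgf (-0.77 ± 0.21) the falls. From P3 to P5, 17 of 72 were higher and 6 lower, beside 13.4% and 15.3% of all genes, among them 7 glycolytic genes higher and 0 lower, with Ppp1r3c (1.90 ± 0.37), the aldolase Aldoc (1.08 ± 0.39) and the phosphofructokinase Pfkl (0.51 ± 0.14) highest and Kdr (-1.43 ± 0.19), Tfrc (-1.08 ± 0.14) and Edn1 (-1.01 ± 0.21) lowest. From P5 to P7, 15 of 72 were higher and 5 lower, beside 7.67% and 9.1% of all genes, a total of 20 that was 10 with only the 2 groups compared. The rises were led by the secreted glycoprotein Stc1 (1.85 ± 0.20), Ppp1r3c (0.90 ± 0.30) and Angptl4 (0.87 ± 0.18), and the falls by Aldoc (-1.31 ± 0.40), Zfp395 (-1.16 ± 0.22) and Ndrg1 (-0.46 ± 0.08). Of the glycolytic genes 2 were higher and 1 lower from P5 to P7. Their median log2 change was 0.03 from P1 to P3, 0.23 from P3 to P5 and 0.18 from P5 to P7. Aldoc was low (average log2 CPM 1.33 over the passages), and its groups overlapped both from P3 to P5 and from P5 to P7.

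Over the 16 passage libraries, the genes whose log2 CPM tracked that of Ndufa4l2 most closely among 9424 were Mxra8 (Pearson r = 0.98), Txnip (0.978), Tspyl1 (0.974), Htatip2 (0.969) and Ech1 (0.967). These are descriptions over libraries that share the passage, and no test is attached. Txnip, a restraint on glucose uptake, averaged 37.5, 74.2, 96.7 and 114 CPM at P1, P3, P5 and P7.

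ATAC-seq asked whether the promoters of the members were open. For each sample the strongest peak within 1000 bases of a RefSeq start site was ranked among all peaks of that sample by its -log10 p, as a percentile, so 100 is the strongest peak of the sample. All 10 members had such a peak in all 13 samples. The promoters shown here are those of the genes whose rank passed the test between P1 and P7 and that have an entry in the RefSeq table, from 250 bases before the start site to 20 after it, with HIF core letters in capitals. The letters ACGTG and GCGTG were searched on both strands, so CACGT and CACGC mark cores of the opposite strand and CACGTG counts on each. Bnip3 is at chr7:138909487-138909756 (minus strand), Egln3 at chr12:54203855-54204124 (minus), Adm at chr7:110627407-110627676 (plus), Pdk1 at chr2:71872974-71873243 (plus) and Vegfa at chr17:46032358-46032627 (minus), all in GRCm38.p6.
Bnip3: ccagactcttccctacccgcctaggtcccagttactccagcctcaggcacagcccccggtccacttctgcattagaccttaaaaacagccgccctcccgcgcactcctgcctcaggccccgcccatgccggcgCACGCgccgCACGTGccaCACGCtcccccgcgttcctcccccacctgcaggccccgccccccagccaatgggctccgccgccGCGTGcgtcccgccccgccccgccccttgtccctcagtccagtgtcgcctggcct
Egln3: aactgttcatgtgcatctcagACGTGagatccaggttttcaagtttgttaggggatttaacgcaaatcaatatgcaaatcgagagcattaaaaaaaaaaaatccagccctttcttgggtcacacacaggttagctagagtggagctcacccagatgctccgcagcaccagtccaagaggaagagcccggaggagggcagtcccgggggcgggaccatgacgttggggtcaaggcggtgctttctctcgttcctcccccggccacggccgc
Adm: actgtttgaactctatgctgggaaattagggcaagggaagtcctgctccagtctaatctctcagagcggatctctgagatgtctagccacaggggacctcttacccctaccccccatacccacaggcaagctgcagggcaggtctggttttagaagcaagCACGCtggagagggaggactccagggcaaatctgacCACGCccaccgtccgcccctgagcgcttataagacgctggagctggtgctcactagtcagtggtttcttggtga
Pdk1: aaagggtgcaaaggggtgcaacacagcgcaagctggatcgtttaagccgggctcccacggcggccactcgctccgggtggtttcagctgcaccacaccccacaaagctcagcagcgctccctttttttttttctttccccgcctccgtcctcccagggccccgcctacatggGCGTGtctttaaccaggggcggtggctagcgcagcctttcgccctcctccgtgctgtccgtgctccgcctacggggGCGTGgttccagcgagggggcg
Vegfa: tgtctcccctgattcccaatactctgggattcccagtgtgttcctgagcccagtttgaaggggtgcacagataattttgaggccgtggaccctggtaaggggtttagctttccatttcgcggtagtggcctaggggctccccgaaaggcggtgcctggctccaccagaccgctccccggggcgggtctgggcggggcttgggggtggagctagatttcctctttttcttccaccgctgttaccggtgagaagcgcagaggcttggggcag

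Bnip3 held 5 cores, of which 4 lay between -117 and -99 from the start site and 1 at -35. Pdk1 held 2 (at -78 and -2), Adm 2 (at -90 and -54), Egln3 1 (at -229) and Vegfa 0 in this window. Over the 10 promoter entries of the 8 members that matched the table, 8 held at least 1 core in 300 bases (80%), beside 43.8% of all 32851 promoters of that length. These matches describe letters only. The summit of the strongest peak lay in all 13 samples between 42 and 104 bases before the start site of Bnip3, 24 to 50 before that of Pdk1 and 17 to 46 before that of Adm.

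The promoter peaks of 5 members ranked lower at P7 than at P1 and that of 1 ranked higher. Bnip3 was at the 83.1, 83.6, 83.9 and 84.1 percentile at P1 and at 60.5, 62.7 and 64.6 at P7, with P3 at 59.1 to 82.1 and P5 at 58.8 to 69.5. The change was -21.1 points (p = 0.0286 in a two-sided exact permutation test, which cannot go lower with 4 samples against 3). The mean CPM of Bnip3 over the same passages went from 25.0 ± 3.43 to 66.7 ± 20.5 (SD, n = 4), the opposite direction. With a window of 2000 bases on each side the strongest peak for Bnip3 ranked at 94.2 at P1 and 97.3 at P7, 3.02 points higher (exact permutation p = 0.0571), so the direction of its rank depends on the window. Vegfa was at 78.4, 78.5, 75.7 and 78.9 at P1 and 63.5, 62.2 and 68.2 at P7 (-13.3 points), and P5 (75.2 to 79) still lay with P1. Adm was at 82.5, 72.5, 78.2 and 77.8 at P1 and 68.3, 66.2 and 57.8 at P7 (-13.6). No sample of P7 reached P1 in any of these genes.

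Egln3 was at 90.1, 87.8, 86.2 and 87.1 at P1 and 81.3, 79.2 and 78.4 at P7 (-8.16), which runs the same way as its mRNA. Epas1 was at 94.6, 94.8, 96.5 and 94.9 at P1 and 85.9, 88.7 and 91.7 at P7 (-6.49), while its mRNA did not pass. Pdk1 was at 96.2, 96.7, 96.6 and 97.2 at P1 and 98.2, 97.7 and 97.9 at P7 (1.25 points higher), and 1 P3 sample fell to 88.9. Vegfa, Adm, Egln3, Epas1 and Pdk1 each had p = 0.0286 in the same exact permutation test, and p-values were not adjusted over promoters. Car9 was at 81.2 to 86.9 at P1 and 87.9 to 93.1 at P7 without overlap of the groups, a difference of 7.10 points that did not pass (exact permutation p = 0.0571), and its strongest peak lay 823 to 852 bases after the predicted start site at 43507956, in a window shared with the start of Arhgef39. Within 1000 bases of the curated start site of Car9 at 43507026, a peak was called in 3 of 4 P1 samples and 1 of 3 P7 samples. The mean percentile there was 63.5 at P1 and 23.3 at P7, with 0 where no peak was called, so the direction depends on the start site. Hif1a (1.22 points, exact p = 0.2) and Ankrd37 (-0.414 points, exact p = 0.743) did not pass.

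Ndufa4l2, the member with the largest rise in mRNA, had the lowest mean promoter rank of the 10 at each passage within 1000 bases. It was at the 67.5, 63.1, 41.8 and 55.5 percentile at P1, 59.3, 32.2 and 58.1 at P3, 46.4, 52.7 and 41.4 at P5 and 41.8, 46.2 and 30.3 at P7. The P1 and P7 samples overlapped and the difference of -17.6 points did not pass (exact permutation p = 0.0857). With 2000 bases on each side it ranked at 89.2 at P1 and 94.2 at P7, above Vegfa and Adm, and the difference turned to 4.99 points (exact permutation p = 0.171). All of the peaks within 1000 bases were near the outermost, predicted start site at position 127509274. Within 1000 bases of the curated start site at 127514939, or of 127515134, a peak was called in 0 of 13 samples. Vegfa peaks lay at its start site 46032377 and in 0 of 13 samples within 1000 bases of 46025163.

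By this test 6 of 10 members passed, beside 36.8% of 13092 promoters of all genes, of which 28.3% were lower and 8.55% higher at P7, and the median over all promoters was -1.07 points. With the fold enrichment of the strongest peak in place of its rank, 3 members passed (Pdk1 higher, Bnip3 and Vegfa lower), and Epas1 and Egln3 turned to higher values at P7 (0.71 and 0.40 units of fold enrichment, exact p = 0.343 and 0.714). The number of merged peaks was 168982 to 186562 at P1 and 200376 to 231558 at P7. When every sample was cut to an equal number of its strongest peaks, the 5 members with lower ranks passed with larger falls (-11.2 to -36.9 points), while Pdk1 did not pass (0.93 points, exact permutation p = 0.114).

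**Figure D2:**
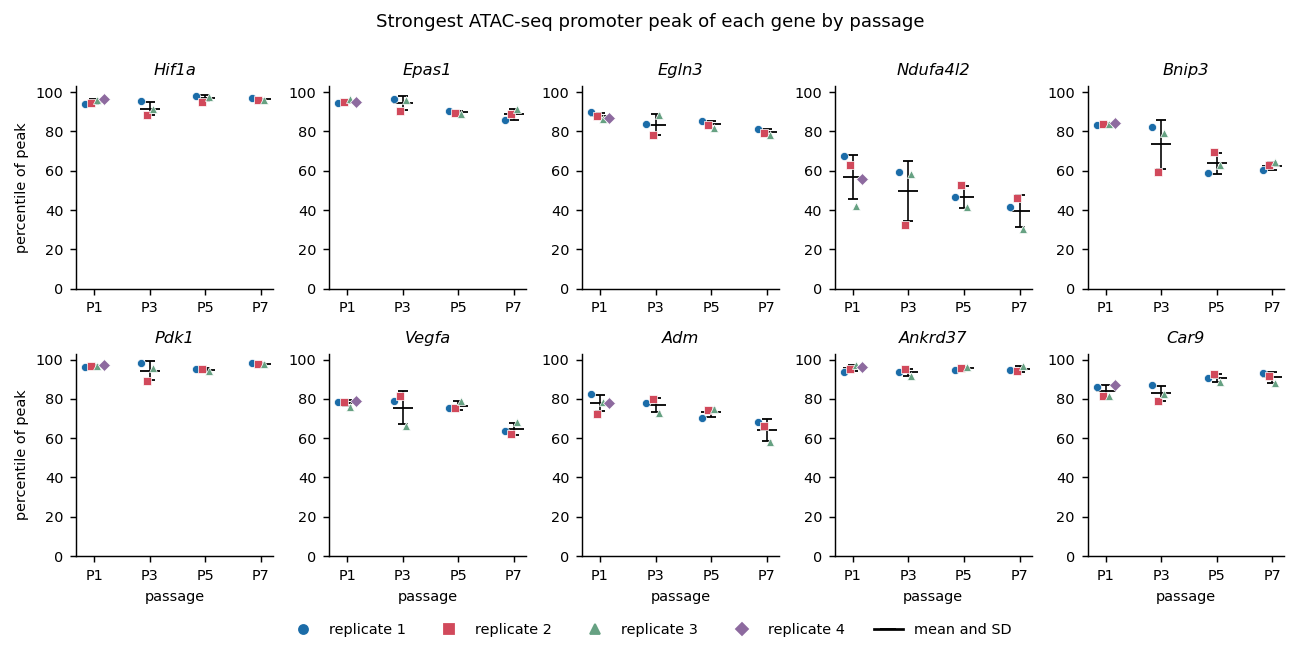
Percentile of the strongest promoter peak of each member among all peaks of its ATAC-seq sample, at P1 (4 samples), P3, P5 and P7 (3 each). Points are samples and bars the mean with its SD. Bnip3 drops from 83.7 ± 0.428 at P1 to 62.6 ± 2.04 at P7, Pdk1 stays above 97 at P7, and Ndufa4l2 lies lowest.

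E2f4, a cell-cycle transcription factor that the study classed as an activator of its downstream genes, was overexpressed in cells nearing senescence. Hif1a was 307 and 259 CPM with the vector and 203 and 178 CPM with E2f4, and fell (-0.57 ± 0.12, adjusted p = 0.0021). Vegfa was 160 and 172 CPM with the vector and 102 and 100 CPM with E2f4 (-0.71 ± 0.10, adjusted p = 0.00024). Bnip3 went from 25.4 and 22.9 CPM to 16.3 and 15.8 CPM (-0.59 ± 0.13, adjusted p = 0.0034). In these 3 genes, both E2f4 libraries were below both controls.

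Car9 also fell, from 1.92 and 1.73 CPM to 0.654 and 0.573 CPM (-1.56 ± 0.37, adjusted p = 0.0043). Ankrd37 was 0.218 and 0.807 CPM with the vector and 1.16 and 1.34 CPM with E2f4 (1.36 ± 0.53, adjusted p = 0.046). The Ankrd37 call was lost without vector replicate 1 (adjusted p = 0.368), E2f4 replicate 1 (0.0722) or E2f4 replicate 2 (0.135). Pdk1 was 19.5 and 18.2 CPM against 16 and 15.1 CPM (-0.28 ± 0.14, adjusted p = 0.10), and Ndufa4l2 0.437 and 0.461 CPM against 0.545 and 0.860 CPM (0.62 ± 0.50, adjusted p = 0.31). Epas1, Adm and Egln3 did not pass. In all 5 of 10 members passed, 4 of them lower, beside 57.2% of 13199 genes (28.9% higher, 28.2% lower).

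In the pathway list 31 of 72 were higher and 15 lower (median 0.33), with 14 of 21 glycolytic genes higher and 3 lower. Of all genes 28.9% were higher and 28.2% lower. The stress-response gene Ndrg1 (2.10 ± 0.15), Zfp395 (1.70 ± 0.14) and the cytokine Mif (1.55 ± 0.22) rose most, and the nuclear receptor Rora (-1.52 ± 0.15), the collagen lysyl hydroxylase Plod2 (-1.31 ± 0.12) and Loxl2 (-1.26 ± 0.10) fell most. The arms differed in more than E2f4. Transcripts of 4 Y-linked genes summed to 68.6 and 66.4 CPM with the vector and 20.3 and 15.6 CPM with E2f4, Xist was 1417 and 1150 CPM against 685 and 555 CPM, and the skeletal muscle markers, 4 to 6 of 8 at 0, summed to 66.9 to 76.3 CPM against 22.4 to 23.8 CPM. The part of these in the results was not tested.

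With the E2f4 hairpin 3 of 10 members passed, beside 17.8% of 12310 genes (10% higher, 7.79% lower). Pdk1 was 21.8, 23.9 and 20.8 CPM with nt and 15.6, 17.2 and 13.9 CPM with sh1, and fell (-0.51 ± 0.12, adjusted p = 0.01). Hif1a was 353, 347 and 333 CPM with nt and 305, 310 and 269 CPM with sh1 (-0.22 ± 0.07, adjusted p = 0.029). Epas1 was 14.4, 9.45 and 12.5 CPM with nt and 18.4, 16 and 17.2 CPM with sh1 (0.51 ± 0.16, adjusted p = 0.036). The groups did not overlap in these 3 genes. Ndufa4l2 was 2.14, 3.35 and 2.71 CPM with nt and 1.82, 1.97 and 2.08 CPM with sh1, also without overlap, but its -0.48 ± 0.31 did not pass (adjusted p = 0.32). Pdk1 was lost without nt replicate 2 (adjusted p = 0.0675), Hif1a without nt replicate 1 (0.137), 2 (0.121) or 3 (0.0719), and Epas1 without nt replicate 2 (0.138), nt replicate 3 (0.0784) or sh1 replicate 1 (0.0951). Bnip3 passed without sh1 replicate 1 (0.40, adjusted p = 0.03). Among 70 pathway genes tested 11 were higher and 12 lower, with the mitochondrial kinase Ak4 lowest (-1.06 ± 0.14) and Ppp1r3c highest (0.85 ± 0.20). Beside these, summed markers were lower with sh1 for fibroblasts (23189 to 25636 CPM against 30396 to 31355 with nt) and higher for mural cells (708 to 777 against 452 to 496), skeletal muscle (112 to 136 against 74.3 to 76.7), adipocytes (97.5 to 109 against 70.8 to 78.0) and macrophages (14.3 to 19.5 against 5.71 to 11.4), and their part in the results was not tested.

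Both Tead1 hairpins moved the same 4 members the same way against the same nt libraries. By the study's listed sequences, sh3 and sh4 target almost the same stretch of Tead1, so their results are not independent of each other. Tead1 is a DNA-binding partner of the Hippo pathway coactivators. Adm was 13.9, 15.4 and 16.7 CPM with nt, 33.7, 33.3 and 32.7 CPM with sh3 and 26.4, 31.9 and 32.5 CPM with sh4, and rose by 1.11 ± 0.09 (adjusted p = 8.3e-12) and 0.98 ± 0.09 (2.7e-10). Vegfa was 217, 202 and 221 CPM with nt, 283, 288 and 276 CPM with sh3 and 258, 261 and 248 CPM with sh4, and rose by 0.40 ± 0.04 (4.2e-09) and 0.26 ± 0.04 (1.5e-05). Both secreted factors were thus higher in all 6 hairpin libraries than in all 3 controls.

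Pdk1 was 9.94, 12.5 and 11.4 CPM with nt, 4.5, 3.97 and 4.41 CPM with sh3 and 6.34, 5.89 and 6.47 CPM with sh4, a change of -1.39 ± 0.14 (adjusted p = 1.6e-09) and -0.86 ± 0.13 (5.6e-06). Hif1a was 207, 225 and 208 CPM with nt, 177, 174 and 184 CPM with sh3 and 174, 176 and 178 CPM with sh4, a change of -0.26 ± 0.04 (1.4e-05) and -0.28 ± 0.04 (7.5e-06). Every hairpin library was below every control in both genes. The 4 of 10 stood beside 35.4% of 13012 genes with sh3 (17.6% higher, 17.7% lower) and 29.1% with sh4 (14.4% higher, 14.7% lower). Ndufa4l2 was 0.636, 1.19 and 1.86 CPM with nt, 1.65, 2.04 and 2.34 CPM with sh3 and 0.979, 1.54 and 0.862 CPM with sh4. It did not pass with either (0.69, adjusted p = 0.11, and -0.15, adjusted p = 0.81), and passed with sh3 without nt replicate 3 (1.13, adjusted p = 0.0272). With sh3, Epas1 passed without nt replicate 2 (-0.29, adjusted p = 0.0408) and Egln3 without nt replicate 1 (-0.68, 0.0402). In the pathway list 5 of 20 glycolytic genes were higher and 12 lower with sh3, and 1 higher and 13 lower with sh4. Slc16a3, the lactate exporter, was lower with each (-0.81 ± 0.08 and -0.65 ± 0.08), as was Insig2 (-0.83 ± 0.08 and -0.86 ± 0.08), while Ppp1r3c was higher (1.57 ± 0.21 and 0.96 ± 0.22). The hairpins differed from each other for 2 of 10 members, Vegfa and Pdk1, beside 7.37% of genes. Summed adipocyte markers were 42.2 to 44.1 CPM with nt, 63.8 to 69.0 with sh3 and 69.9 to 74.4 with sh4, skeletal muscle markers 98.1 to 99.5, 64.5 to 74.8 and 72.6 to 83.6 CPM, and fibroblast markers 27278 to 28335, 26404 to 27237 and 25008 to 25855 CPM, each without overlap between nt and either hairpin, and their part in the results was not tested.

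The largest change of Ndufa4l2 in any perturbation was with the Atf3 hairpins. Atf3 is a stress-induced transcription factor. Ndufa4l2 was 7.13, 8.23 and 9.10 CPM with nt, 3.14, 3.94 and 2.2 CPM with sh5 and 0.291, 0.180 and 0.290 CPM with sh6. The 3 groups were fully separate, with changes of -1.39 ± 0.22 (adjusted p = 0.0016) and -4.97 ± 0.31 (adjusted p = 8.8e-07, 31.3-fold lower), the latter resting on 5, 3 and 5 counts with sh6. The hairpins themselves differed by -3.58 (adjusted p = 1.4e-05), although the Atf3 levels reached with them overlapped. Ndufa4 moved in the other direction with sh6 (0.52 ± 0.14, adjusted p = 0.012).

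Of the oxygen-regulated subunits, Hif1a was 220, 206 and 208 CPM with nt, 269, 253 and 304 CPM with sh5 and 310, 333 and 355 CPM with sh6, and rose by 0.38 ± 0.08 (adjusted p = 0.0073) and 0.65 ± 0.08 (0.00011). Egln3 was 2.25, 2.36 and 2.96 CPM with nt, 5.09, 3.12 and 3.83 CPM with sh5 and 7.50, 8.21 and 8.48 CPM with sh6, and rose by 0.67 ± 0.21 (adjusted p = 0.032) and 1.67 ± 0.20 (7.4e-05). In both genes the order was nt, sh5, sh6 with no overlap. Adm was 14.4, 12.9 and 14.1 CPM with nt, 7.04, 7.52 and 9.64 CPM with sh5 and 11.3, 9.05 and 7.44 CPM with sh6, a change of -0.78 ± 0.17 (0.0073) and -0.58 ± 0.17 (0.017).

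Other members split between the hairpins. Bnip3 was 27.3, 20.8 and 26.6 CPM with nt, 34.7, 35.8 and 38.3 CPM with sh5 and 21.0, 23.4 and 23.2 CPM with sh6, so it rose with sh5 (0.54 ± 0.11, adjusted p = 0.006) and did not pass with sh6 (-0.15, 0.32). Pdk1 was 14.3, 12.9 and 13.2 CPM with nt, 14.4, 14.5 and 14.5 CPM with sh5 and 10.5, 9.95 and 9.82 CPM with sh6, so it fell with sh6 (-0.42 ± 0.10, adjusted p = 0.0062) and did not pass with sh5 (0.10, 0.45). Vegfa was 134, 155 and 152 CPM with nt, 162, 177 and 149 CPM with sh5 and 124, 128 and 117 CPM with sh6, with a fall in sh6 of -0.26 ± 0.09 (adjusted p = 0.032). In all 5 members passed with sh5, beside 35.9% of 13345 genes (17.7% higher, 18.1% lower), and 6 with sh6, beside 49.8% (23.8% higher, 26.0% lower). The direct test between the hairpins passed for 6 of 10, beside 52.6% of genes: Ndufa4l2, Hif1a, Vegfa, Egln3, Bnip3 and Pdk1.

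Replicate 3 of sh5 stood apart from replicates 1 and 2 of its group: the chi-square per degree of freedom over genes was 59.4 and 63.7 against them and 3.29 between them, 16.8% of its counts fell on no gene (12.5 and 13.1% in the others), and its Atf3 level was 0.451 CPM beside 1.46 and 2.10. Without it 6 members passed with sh5, Ndufa4l2, Hif1a, Egln3, Bnip3 and Adm among them. Several of the Atf3 calls depended on 1 library. With sh5, Egln3 was lost without nt replicate 1 (adjusted p = 0.0974), nt replicate 2 (0.0984) or sh5 replicate 1 (0.105), and Vegfa passed without sh5 replicate 3 (0.23, 0.0171). With sh6, Vegfa was lost without nt replicate 2 (0.115) or 3 (0.104) or sh6 replicate 1 (0.0811), 2 (0.0556) or 3 (0.118), Adm without nt replicate 1 (0.0524) or 3 (0.0502) or sh6 replicate 2 (0.0559) or 3 (0.0674), and Car9 passed without sh6 replicate 3 (-1.54, 0.0469).

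The pathway list also split. With sh5, 0 of 21 glycolytic genes were higher and 8 lower, beside 17.7% higher and 18.1% lower of all genes. With sh6, 15 of the 21 were higher and 2 lower, beside 23.8% higher and 26.0% lower of all genes. With sh6, Edn1 (3.00 ± 0.27) and Tfrc (2.41 ± 0.09) were among the highest and Ppp1r3c was lowest (-3.80 ± 0.20, adjusted p = 2.4e-07), and 4 of 6 genes of mitochondria and mitophagy were lower, Bnip3l among them (-0.91 ± 0.08). With sh5, Hmox1, the heme oxygenase (-1.22 ± 0.11), and Pfkl (-0.99 ± 0.11) were lowest. Beside these, the summed fibroblast markers were 34984 to 36806 CPM with nt, 21213 to 33781 CPM with sh5 and 13393 to 14382 CPM with sh6, and the skeletal muscle markers, 3 to 5 of 8 at 0, were 37.6 to 39.1, 13.9 to 17.8 and 196 to 214 CPM. Their part in the results was not tested.

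The study's own calls also asked for a fold over 2. Over the passages that left Pdk1 from P1 to P3 (8.98% of all genes), 0 members from P3 to P5 (3.89%) and from P5 to P7 (3.47%), Bnip3, Pdk1 and Car9 from P1 to P7 (21.4%) and 0 from P3 to P7 (11.9%). It left Car9 and Ankrd37 with E2f4 overexpression (18.1%), 0 with E2f4 sh1 (1.67%), Adm and Pdk1 with Tead1 sh3 (2.71%), 0 with sh4 (1.53%), Ndufa4l2 with Atf3 sh5 (5.2%) and Ndufa4l2 and Egln3 with sh6 (15.7%).

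**Figure D3:**
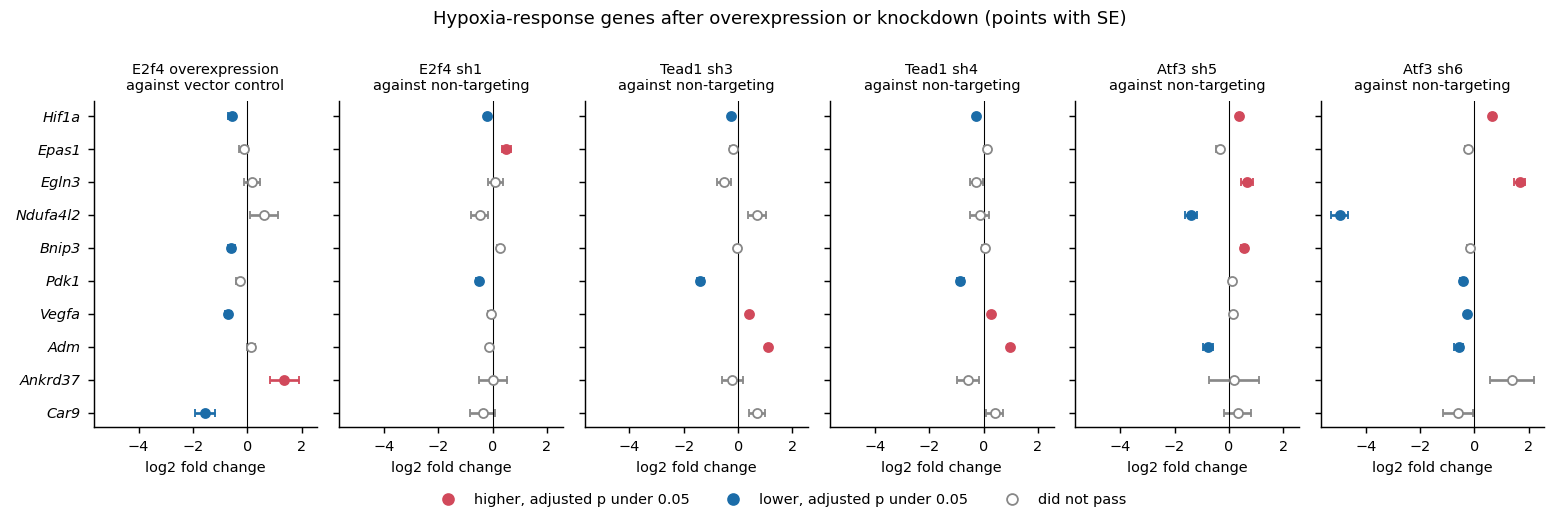
Log2 fold change of each member with its SE for E2f4 overexpression (2 libraries an arm), E2f4 sh1, Tead1 sh3 and sh4 and Atf3 sh5 and sh6 (3 libraries an arm), each against its own control. Ndufa4l2 with Atf3 sh6 (-4.97) lies farthest from 0, and Adm is above 1 with Tead1 sh3 and close to 1 with sh4.

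**Figure D4:**
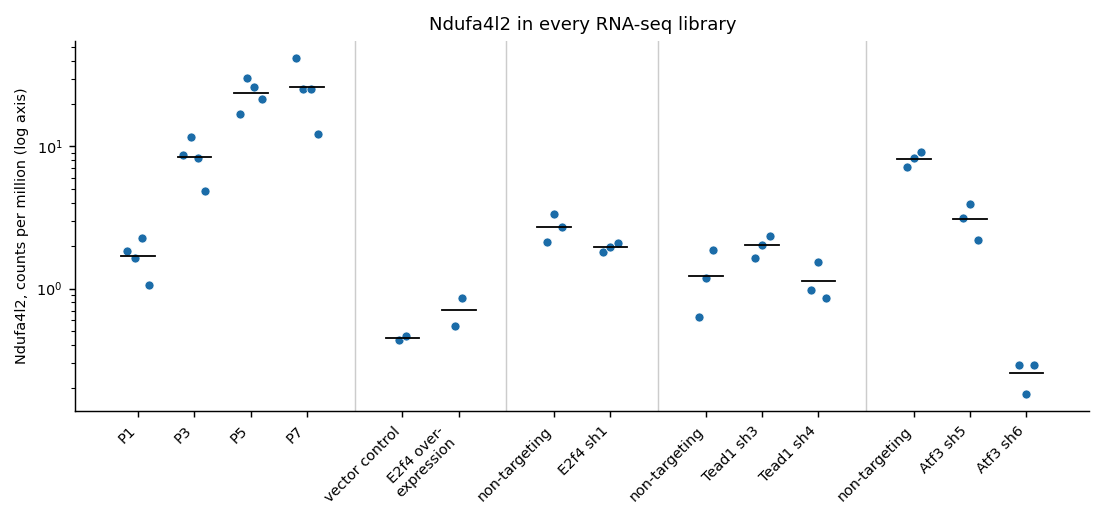
CPM of Ndufa4l2 in all 44 RNA libraries by group, on a log axis. Points are libraries and lines the group means. The P1 libraries lie at 1.05 to 2.26 CPM and the P7 libraries at 12.2 to 42.2 CPM, and the Atf3 sh6 libraries lie lowest of all at 0.180 to 0.291 CPM.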

How the data were processed

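Members and lists were chosen with earlier results of these data known. The authors deposited whole-number counts per gene for 44 RNA libraries, made per the labels and methods with Trimmomatic 0.39, HISAT2 2.2.1 on mm10 and HTSeq 0.12.4, which ignored strand. The authors deposited ATAC-seq peaks called per sample with MACS2 after Bowtie2 2.3.5.1, whose -log10 p-values and fold enrichment (a ratio) were used, with overlapping peaks merged. RRBS samples were not analysed here.

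Non-gene rows (7.5 to 16.8% in 28 libraries) were removed. Counts went into edgeR 4.0.16 (filterByExpr, TMM, quasi-likelihood test, Benjamini-Hochberg, adjusted p under 0.05) in 1 fit per experiment of 12310 to 13442 genes. Scripts were tested on simulated data. Alternatives were RLE scaling, no filter, at least 10 counts in every library, DESeq2 1.42.0, only the 2 groups compared, a replicate block, a fold over 2 (as in the study's calls) and leaving out each library. Replicates differed by more than sampling noise (chi-square per degree of freedom 2.75 to 63.7). The share of all genes without overlap between groups was not counted, so statements of overlap describe only the genes named.

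Promoter ranks were compared with an exact permutation test (scipy 1.17.1) over 35 splits. Other pathway genes are named where they were among the 3 highest or 3 lowest that passed in a comparison, and paralogues by name, and 1 gene that met this rule is not reported here. Transcripts of Xist and of 4 Y-linked genes were chosen after their values were seen. Promoter sequences and start sites are from RefSeq, GRCm38.p6. Epas1 and Ndufa4l2 have no sequence entry.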

Additional observations from a re-analysis of the deposited data

Results flagged for a closer look

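In groups of 4 libraries or samples, 1 value stood apart from the rest of its group, by Dixon's 95% criterion, in 3 of 50 groups examined, where chance gives about 1 in 20. Car9 was 0.136 CPM in its lowest P1 library, beside a highest of 0.548 CPM. Epas1 was 87.3 CPM in its highest P3 library, beside a median of 47.8 CPM. The promoter peak of Epas1 reached the 96.5 percentile in its highest P1 sample, beside a lowest of 94.6.

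The 2 hairpins of 1 gene differed from each other for some members in edgeR's quasi-likelihood test with Benjamini-Hochberg adjustment, added after the data were seen. Between Tead1 sh4 and sh3, 2 of 10 members differed, beside 7.37% of all genes: Vegfa by -0.14 (adjusted p = 0.0296) and Pdk1 by 0.54 (adjusted p = 0.0216). Vegfa was lost without sh3 replicate 1 or 2 or sh4 replicate 1 or 3 (adjusted p = 0.0835, 0.124, 0.0745 and 0.129), and Pdk1 without sh3 replicate 2 or 3 or sh4 replicate 1 or 3 (0.0927, 0.0504, 0.0711 and 0.0737).

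Between Atf3 sh6 and sh5 the log2 difference was -3.58 for Ndufa4l2 (adjusted p = 1.4e-05), 1.01 for Egln3 (0.0018), -0.69 for Bnip3 (0.00068), -0.52 for Pdk1 (0.0018), -0.40 for Vegfa (0.0033) and 0.27 for Hif1a (0.0199). All 3 sh6 libraries lay on 1 side of all 3 sh5 libraries for each of these 6. These 6 were picked by the test, and the share of all genes with such separation was not counted. Hif1a was lost without sh5 replicate 1 or 2 or sh6 replicate 2 or 3 (adjusted p = 0.0572, 0.0705, 0.0557 and 0.0953). Ankrd37 passed without sh5 replicate 1 (2.95, adjusted p = 0.0294), and Car9 without sh6 replicate 3 (-1.87, adjusted p = 0.019).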

How the results depend on the processing

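Of the values for single members and settings, 1489 kept their direction and side of the threshold, or stayed within the replicate SD where untested. A call was lost by 64 and gained by 24. A further 54 moved: tested values that changed direction with no call in either setting, or untested values of Ndufa4l2 that shifted beyond the replicate SD. Only 1 untested value reversed direction. The number of members called changed by over 1.5 times in these cases. With a fold over 2 required, 1 was called from P1 to P3, 3 from P1 to P7, 0 from P3 to P7, 2 with E2f4 overexpression, 0 with E2f4 sh1, 2 with Tead1 sh3, 0 with sh4, 1 with Atf3 sh5 and 2 with sh6. From P3 to P5, where none was called, no filter, DESeq2 and only the 2 groups compared gave 1 each, and the replicate block and leaving out replicate 4 of every passage (an alternative chosen after seeing the data) gave 2 each. From P1 to P7, 3 were called with at least 10 counts in every library, a filter that removes genes of low count, and 3 without replicate 4 of every passage. In the pathway list, P7 against P5 gave 10 calls with only the 2 groups compared, against 20. Leaving out 1 library gave 4 to 5 calls from P1 to P3, 0 to 1 from P3 to P5 and from P5 to P7, 4 to 5 from P1 to P7, 1 to 3 from P3 to P7, 4 to 5 with E2f4 overexpression, 0 to 3 with E2f4 sh1, 4 to 5 with Tead1 sh3, 4 to 4 with sh4, 4 to 6 with Atf3 sh5 and 4 to 5 with sh6. A lone library left in an arm is assumed to vary like the others. Ndufa4l2 from P5 to P7 ranged from -0.18, a reversal, without P7 replicate 1 to 0.38 without P7 replicate 4. Car9 at P7 against P1 had adjusted p = 0.058 with no filter and 0.071 by DESeq2, Vegfa 0.0622 with at least 10 counts in every library, Ankrd37 with E2f4 overexpression 0.174 by DESeq2, Epas1 with E2f4 sh1 0.0728 by DESeq2, Egln3 with Atf3 sh5 0.0709 with only the 2 groups compared and Vegfa with Atf3 sh6 0.0556 with no filter. The cause was not tested.

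For promoters, fold enrichment gave 3 calls in place of 6, with Epas1 at 0.71 and Egln3 at 0.40 reversed. Bnip3 reversed to 3.02 points and Ndufa4l2 turned to 4.99 with a window of 2000 bases, Pdk1 did not pass with an equal number of strongest peaks per sample (0.93), and the bases covered by peaks reversed Pdk1 (-281 bases) and Car9 (-95.5 bases). By bases covered, Vegfa (exact permutation p = 0.6) and Adm (0.486) did not pass, and Ankrd37 passed (-254 bases, 0.0286). With only peaks of -log10 q of at least 5, Adm did not pass (-15.4 points, exact permutation p = 0.0571). Leaving out a sample or blocking by number leaves no p under 0.05 possible.

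Same-numbered libraries did not deviate together throughout (correlations of -0.59 to 0.60 over the passages), so the replicate block was not taken as pairing, and it changed the count of members called by over 1.5 times from P3 to P5 only. Low counts limit Car9, Ankrd37, Egln3 and, in the Atf3 sh6 libraries, Ndufa4l2. Over the passages they also limit the pathway genes Ppp1r3c and Aldoc. The labels do not tie ATAC-seq samples to RNA libraries.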
